A study of Mus musculus with 30 samples.

Results

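The 9 genes P2ry12, P2ry13, Gpr34, Adgrg1, Selplg, Siglech, Fcrls, Tmem119 and Olfml3 are genes of resting microglia that code for surface or secreted proteins. They were chosen by name, and each of the 9 was found among the 36528 gene identifiers of the count tables. The data are 30 RNA sequencing libraries of cells sorted from brains of mice 11.5 months old. Cd11b+ myeloid cells, Gfap+ astrocytes and NeuN+ neurons came from PS2APP mice, which carry transgenes for human presenilin 2 and amyloid precursor protein and form amyloid plaques, or from littermates without the transgenes (non-Tg). This gave 6 groups of 5 libraries: PS2APP myeloid, non-Tg myeloid, PS2APP astrocyte, non-Tg astrocyte, PS2APP neuron and non-Tg neuron. The labels name no treatment and state neither the transgene promoters nor which libraries share an animal or whether animals were pooled, so p-values measure only the spread between these libraries, which may in part be technical. A Cd11b sort takes microglia together with other cells that carry this integrin. In such bulk samples, fewer cells of a type and less RNA per cell cannot be told apart.

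Microglia are the resident macrophages of the brain. In the healthy brain their processes survey the tissue, and a set of surface proteins that sense nucleotides, lipids, sialic acids and matrix is used to tell them from blood-borne macrophages. P2ry12 and P2ry13 code for G protein-coupled receptors for ADP, through which microglial processes are drawn to damaged cells, and Gpr34 codes for a receptor for lysophosphatidylserine. Adgrg1 (also Gpr56) codes for an adhesion G protein-coupled receptor that binds matrix proteins, and Selplg for a glycoprotein that binds selectins. Siglech codes for Siglec-H, a member of the Siglec family of lectins that signals through the adaptor Tyrobp. Fcrls codes for an Fc receptor-like protein and Tmem119 for a membrane protein used as a microglial marker. Olfml3 codes for a secreted protein of the olfactomedin family, so the name surface gene holds for the other 8.

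Libraries held 2015535 to 6749681 counts. The total was lower in the 5 PS2APP myeloid libraries (2015535 to 2908222) than in any non-Tg myeloid library (3578249 to 6143018; exact two-sided permutation p = 0.00794, adjusted p = 0.0571 among 36 depth and composition tests, where 0.00794 is the smallest p that 5 against 5 allows). The sort was checked on marker genes that are not members. A myeloid reference list of 10 genes (Itgam, Csf1r, Laptm5, Aif1 and complement C1q genes among them) summed to 8567 CPM (counts scaled to a common library size) in the non-Tg myeloid group, to 44.4 in the non-Tg astrocyte group and to 72 in the non-Tg neuron group. The 10 astrocyte markers summed to 12067 CPM in non-Tg astrocyte libraries and the 12 neuron markers to 3745 CPM in non-Tg neuron libraries. Each sort followed its markers, and RNA of the other cell types was present in each.

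Positions are given in the GRCm38.p6 build with the RefSeq gene models. P2ry13 (chr3:59207892-59210882) and P2ry12 (chr3:59216271-59262985) are neighbours on the minus strand, 5389 bases apart, and both lie inside Med12l, a Mediator subunit gene on the plus strand. Tmem119 (chr5:113793729-113800396) and Selplg (chr5:113817798-113832528) are neighbours on the minus strand, 17402 bases apart. Gpr34 (chrX:13622650-13640859, plus strand) lies inside Cask, a synaptic scaffold gene on the minus strand. Olfml3 (chr3:103735394-103738001) and Fcrls (chr3:87250736-87263765) are further genes of chromosome 3 on the minus strand, and Siglech (chr7:55768154-55779448) and Adgrg1 (chr8:94974756-95014208) are on the plus strand. The sources used here do not say whether counting used strand. Reads of P2ry12 and P2ry13 therefore cannot be told apart from reads of Med12l on the opposite strand. The same holds for reads of Gpr34 and Cask, and low levels of these 3 members are uncertain.

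The 250 bases before the annotated start were read from the RefSeq promoter table (GRCm38.p6), in which 6 members matched with 7 starts. The pair shown is that of the neighbours P2ry12 and P2ry13, receptors for the same ligand of which P2ry13 passed the test in the myeloid comparison below and P2ry12 did not. They are written 5′ to 3′ on the gene's own strand, both from the minus strand of chromosome 3. Capitals mark an Ets core (AGGAAGT) and an E-box (CACGTG).
P2ry12, chr3:59262986-59263235: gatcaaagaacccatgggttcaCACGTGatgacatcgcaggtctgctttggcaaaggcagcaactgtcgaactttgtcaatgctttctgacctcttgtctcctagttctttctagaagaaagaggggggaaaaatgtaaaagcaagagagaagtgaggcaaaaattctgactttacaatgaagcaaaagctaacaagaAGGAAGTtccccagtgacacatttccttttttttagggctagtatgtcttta
P2ry13, chr3:59210883-59211132: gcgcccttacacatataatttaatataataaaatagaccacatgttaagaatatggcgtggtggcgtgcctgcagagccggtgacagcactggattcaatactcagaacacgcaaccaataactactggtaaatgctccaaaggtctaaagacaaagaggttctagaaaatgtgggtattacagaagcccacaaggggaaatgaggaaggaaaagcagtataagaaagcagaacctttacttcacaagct
The Ets core was searched because PU.1, the Ets factor of myeloid cells, binds such letters, and the E-box because bHLH factors do. The P2ry12 window held 1 Ets core, 46 bases before the start, and 1 E-box, 223 bases before it. Neither motif was found in the P2ry13 window. Among the other members, Fcrls held 1 Ets core on the other strand, 69 bases before the table's start. Siglech held 1 E-box, 51 bases before its start, while Olfml3 and both starts of Adgrg1 held neither motif. The windows of Fcrls and Adgrg1 lie mostly or wholly inside the gene models given above, and the last 30 bases of the Siglech window do. Tmem119, Selplg and Gpr34 had no entry. Of all 32851 promoter windows of the table, 7.69% held the Ets core and 6.02% the E-box on either strand, and the motifs do not overlap each other. A match is a run of letters and not a measured binding site.

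Levels across the 6 groups are given as the deposited size-factor-adjusted RPKM (nRPKM), which is per gene length and so allows genes to be set side by side. In non-Tg myeloid libraries the order was Siglech (106 ± 7.76 nRPKM, SD, n = 5), Selplg (105 ± 22.4), Tmem119 (86 ± 19.6), Fcrls (76.9 ± 16.3), P2ry12 (43.5 ± 5.78), Olfml3 (37.8 ± 15.2), P2ry13 (26.7 ± 5.16), Adgrg1 (18.6 ± 2.79) and Gpr34 (7.62 ± 2.55). In PS2APP myeloid libraries the first 4 places were those of Selplg (95.7 ± 18.6 nRPKM), Siglech (85.9 ± 5.08), Fcrls (75.5 ± 8.81) and Tmem119 (54.3 ± 14.7), and the other 5 members kept their places. The members were listed as genes of microglia, so their height in myeloid libraries is a description and was not tested.

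For 8 members both myeloid groups stood above all astrocyte and neuron libraries with no overlap. The highest non-Tg myeloid excess over non-Tg astrocyte libraries was that of Selplg, at 507-fold in nRPKM, and that of Fcrls was 453-fold. Over non-Tg neuron libraries the excess was 239-fold for Fcrls, 227-fold for Siglech and 227-fold for Tmem119. P2ry13 had the lowest excess of these 8, 24.5-fold over astrocyte and 12-fold over neuron libraries. Its neuron libraries (1.98 to 2.52 nRPKM in non-Tg and 2.01 to 2.68 in PS2APP) lay above all its astrocyte libraries (0.546 to 1.40 and 0.471 to 1.36). For P2ry12, Gpr34, Selplg, Siglech, Fcrls, Olfml3 and Tmem119 each of the 4 astrocyte and neuron groups overlapped its neighbour in the order of mean levels. Tmem119 was listed at 0 in PS2APP astrocyte library 5 and Olfml3 in PS2APP astrocyte library 2.

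Outside the myeloid sorts, the ADP receptors were the highest of the 8 members in non-Tg libraries. P2ry12 stood at 0.866 ± 0.203 nRPKM in non-Tg and 1.43 ± 0.628 in PS2APP astrocyte libraries, and at 0.782 ± 0.225 and 0.754 ± 0.203 in neuron libraries. P2ry13 stood at 1.09 ± 0.320 and 0.871 ± 0.380 nRPKM in astrocyte and 2.22 ± 0.202 and 2.35 ± 0.259 in neuron libraries. So P2ry13, lower than P2ry12 in myeloid cells, was the higher of the pair in neuron libraries. Gpr34 stood at 0.157 ± 0.129 and 0.172 ± 0.0891 nRPKM in astrocyte and 0.389 ± 0.160 and 0.293 ± 0.131 in neuron libraries. Selplg stood at 0.207 ± 0.227 and 0.810 ± 0.317 in astrocyte and 0.605 ± 0.216 and 0.821 ± 0.372 in neuron libraries. These 2 genes had lower non-Tg means in astrocyte than in neuron libraries, as P2ry13 did. Siglech stood at 0.667 ± 0.276 and 1.35 ± 0.556 nRPKM in astrocyte and 0.468 ± 0.124 and 0.681 ± 0.292 in neuron libraries. Fcrls stood at 0.170 ± 0.0965 and 1.34 ± 0.738 in astrocyte and 0.321 ± 0.133 and 0.513 ± 0.222 in neuron libraries, so that its lowest and its highest value outside the myeloid sorts were both means of astrocyte groups. Tmem119 (0.450 ± 0.238 and 0.451 ± 0.443 nRPKM in astrocyte, 0.379 ± 0.131 and 0.476 ± 0.215 in neuron libraries) and Olfml3 (0.332 ± 0.111 and 0.397 ± 0.375, 0.404 ± 0.160 and 0.391 ± 0.129) differed least in mean between these 4 groups.

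Adgrg1 did not follow this pattern. Its level was 16.7, 23.5, 17.9, 17.8 and 17.1 nRPKM in the 5 non-Tg myeloid libraries and 13.9, 15.9, 16.8, 11 and 14.5 nRPKM in the 5 non-Tg astrocyte libraries. PS2APP myeloid libraries held 12.4, 12, 14.3, 12.7 and 11.3 nRPKM, and PS2APP astrocyte libraries 13.1, 16.7, 14.1, 13.5 and 15.3 nRPKM. The order of the group means was non-Tg myeloid, PS2APP astrocyte, non-Tg astrocyte and PS2APP myeloid, and each of these groups overlapped the next. Both neuron groups, at 0.706 ± 0.0622 nRPKM in PS2APP and 0.561 ± 0.0650 nRPKM in non-Tg libraries, lay below all of them. By level the astrocyte libraries overlapped the myeloid ones, so the name of a microglial gene set Adgrg1 apart from neurons but not from astrocytes in these sorts.

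**Figure D1:**
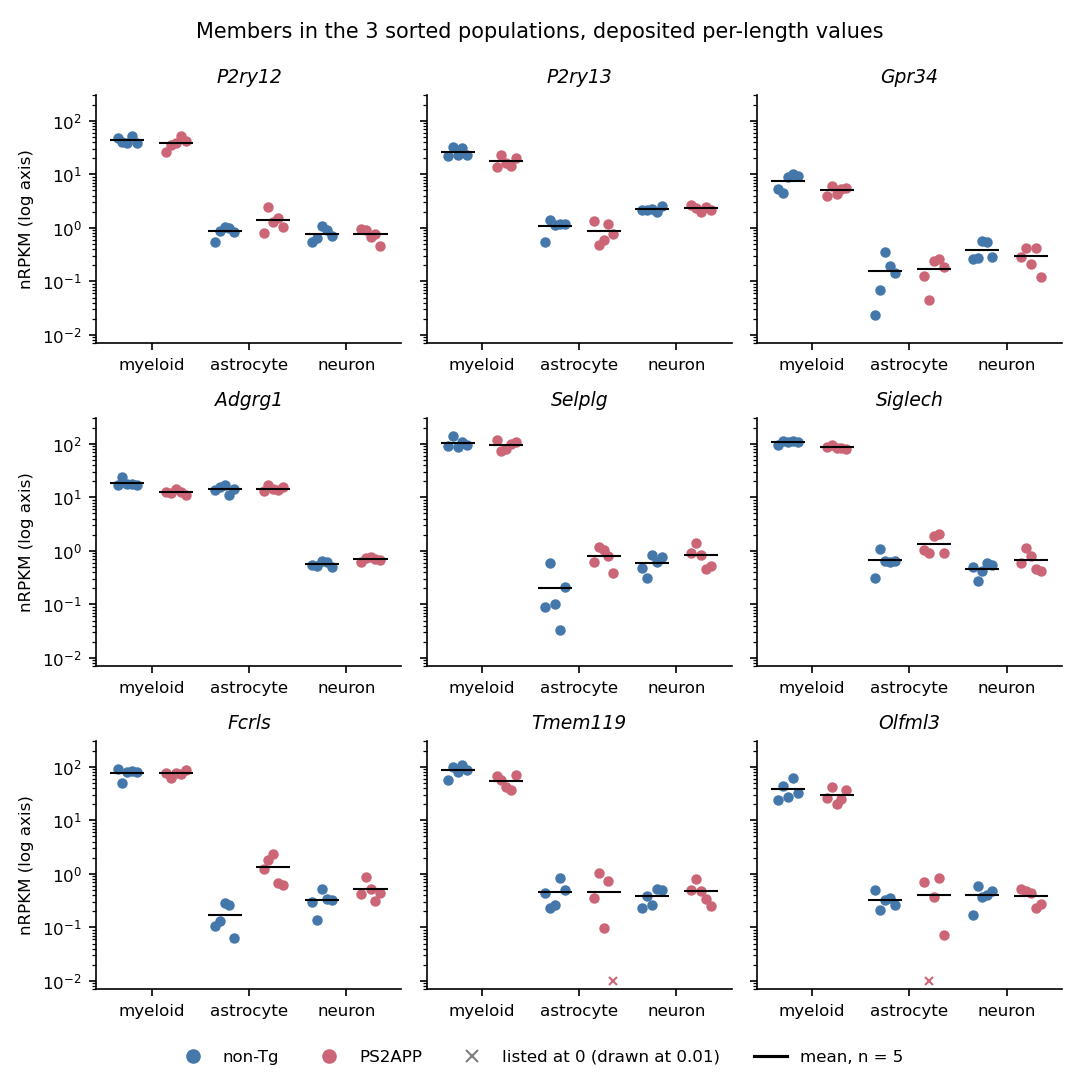
Deposited nRPKM (log axis) of the 9 members in each of the 30 libraries, non-Tg in blue and PS2APP in red, with the group mean as a line (n = 5) and values of 0 as crosses drawn at 0.01. The myeloid points lie above the astrocyte and neuron points for 8 members, while for Adgrg1 the astrocyte points (means of 14.4 and 14.5 nRPKM) lie among the myeloid ones.

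The first comparison set the members in PS2APP against non-Tg myeloid libraries. Of the 9 members, 3 fell: Adgrg1, Tmem119 and P2ry13. None of the 9 rose, and the other 6 did not pass the test (edgeR's quasi-likelihood test, Benjamini-Hochberg adjusted over 12274 genes, adjusted p of 0.05). Across all genes tested 3.36% passed, 1.50% lower and 1.86% higher in PS2APP. All 9 log2 fold changes were below 0 under the main TMM normalization, with a median of -0.39 against -0.0021 over all genes. Scaled instead to the 10 myeloid reference genes, which moved the median of all genes to 0.22, no member was called and P2ry12 (0.029), Selplg (0.040) and Fcrls (0.13) turned to values above 0. All 9 members passed the filter on low counts in myeloid libraries.

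Of the ADP receptors, P2ry13 was measured at 193, 276, 199, 275 and 204 CPM in the 5 non-Tg myeloid libraries and at 115, 193, 138, 115 and 169 CPM in the 5 PS2APP myeloid libraries, each in the order of replicates 1 to 5. The highest PS2APP library (replicate 2) lay just under the lowest non-Tg library (replicate 1), so the groups did not overlap in CPM. The log2 fold change was -0.65 ± 0.18 (SE, edgeR adjusted p = 0.0433). Its neighbour P2ry12, the better known receptor of the pair, was measured at 425, 350.3, 339.6, 456 and 342 CPM in non-Tg and 226, 305, 338, 427 and 349.7 CPM in PS2APP myeloid libraries. PS2APP replicate 1 was the lowest library, while PS2APP replicate 4 lay above 4 of the 5 non-Tg libraries, and the groups overlapped. The log2 fold change of P2ry12 was -0.22 ± 0.16 (edgeR adjusted p = 0.486) and did not pass.

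The call of P2ry13 lay close to the threshold. It was kept only without non-Tg replicate 1 and without PS2APP replicate 2, and was lost in the other 8 of 10 fits that left out 1 library (log2 fold change -0.76 to -0.58, edgeR adjusted p up to 0.140, without non-Tg replicate 4). DESeq2 gave an adjusted p of 0.0147 for P2ry13.

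Gpr34, the lysophosphatidylserine receptor, had the lowest counts of the members in myeloid cells. Non-Tg libraries held 48.8, 38.6, 81.1, 90.9 and 85.7 CPM and PS2APP libraries 34.7, 53.9, 38.4, 45.8 and 47.6 CPM. Non-Tg replicates 3, 4 and 5 stood above all other libraries, while non-Tg replicates 1 and 2 lay among the PS2APP libraries. The log2 fold change of -0.65 ± 0.24 was as large as that of P2ry13 but had a wider error and did not pass (edgeR adjusted p = 0.132).

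Adgrg1, the adhesion receptor, had the smallest adjusted p of the members. It was measured at 313, 424, 330.4, 335 and 322 CPM in non-Tg and 221, 216, 262, 223 and 202 CPM in PS2APP myeloid libraries. All PS2APP libraries lay below all non-Tg libraries, and non-Tg replicate 2 stood above the other 4 of its group. Adgrg1 fell by 0.62 ± 0.14 on the log2 scale (edgeR adjusted p = 0.0233). The call was kept in 6 of 10 fits that left out 1 library and lost without non-Tg replicate 2, 4 or 5 or PS2APP replicate 5, where the edgeR adjusted p reached 0.0644. Selplg, the selectin ligand, was measured at 872, 1325, 842, 1055 and 917 CPM in non-Tg and 1080.1, 679.5, 758, 889 and 1014 CPM in PS2APP myeloid libraries. The groups overlapped widely, with non-Tg replicate 2 the highest and PS2APP replicate 2 the lowest. Its log2 fold change of -0.18 ± 0.16 did not pass (edgeR adjusted p = 0.573).

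Siglech, the gene of the Siglec family, was the least variable member, at 919, 1051, 1043, 1120.1 and 1047 CPM in non-Tg and 828, 882, 804, 764 and 759.8 CPM in PS2APP myeloid libraries. Every PS2APP library lay below every non-Tg library in CPM, but the log2 fold change of -0.36 ± 0.13 did not pass in edgeR (adjusted p = 0.125), whereas DESeq2 called it (adjusted p = 0.0396). With P2ry13 and Adgrg1, Siglech made up the 3 of 9 members whose PS2APP libraries all lay below the non-Tg ones, which held for 2.71% of all genes tested, while 2.09% of genes and no member lay above. In deposited nRPKM, which are scaled by the authors' size factors, Adgrg1 alone kept this separation: the highest PS2APP library lay above the lowest non-Tg library for P2ry13 (23.2 against 22.2 nRPKM) and, by a small margin, for Siglech (93.6 against 93.5). Fcrls, the Fc receptor-like gene, was measured at 730.4, 378, 627, 683 and 647 CPM in non-Tg and 579, 485, 598, 561 and 675 CPM in PS2APP myeloid libraries. Non-Tg replicate 2 was the lowest of all 10 libraries and non-Tg replicate 1 the highest. The log2 fold change of Fcrls was -0.081 ± 0.16 (edgeR adjusted p = 0.830), the smallest of the 9.

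Tmem119, the membrane marker, was measured at 422, 717, 573, 789 and 645 CPM in non-Tg and 472, 404, 302, 251 and 489 CPM in PS2APP myeloid libraries. PS2APP replicates 3 and 4 were the lowest, and the groups overlapped only because non-Tg replicate 1 lay below PS2APP replicates 1 and 5. Tmem119 fell by 0.71 ± 0.19 on the log2 scale (edgeR adjusted p = 0.0405). The call was kept in 3 of 10 fits that left out 1 library, those without non-Tg replicate 1, PS2APP replicate 1 or PS2APP replicate 5, and lost in the other 7 (edgeR adjusted p up to 0.135, without non-Tg replicate 4). It was also lost in the fit of all 30 libraries (edgeR adjusted p = 0.118). Selplg, its neighbour on the same strand, did not pass, as given above. Olfml3, the secreted protein, was measured at 143, 249, 162, 369 and 193 CPM in non-Tg and 147, 238, 118, 138 and 209.9 CPM in PS2APP myeloid libraries. Non-Tg replicate 4 stood far above the rest and the other libraries of both groups were mixed. Its log2 fold change was -0.39 ± 0.23 (edgeR adjusted p = 0.359).

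The members did not move as 1 block from library to library. PS2APP replicate 3 lay below all 5 non-Tg libraries for 8 of the 9 members, PS2APP replicate 2 for 6, PS2APP replicates 1 and 4 for 5 each and PS2APP replicate 5 for 3. Among non-Tg libraries, replicate 4 was the highest of all 10 for 5 members, replicate 2 for 3 and replicate 1 for 1. The shares of all genes for these counts per library were not computed, so the counts cannot be read as a trait of the members. Without non-Tg replicate 2, 4 or 5 no member was called, and without non-Tg replicate 3 or PS2APP replicate 3, 4 or 5 1 member was called.

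Markers of other cell types differed in level between the genotypes in the myeloid libraries. The 12 neuron markers summed to 385 (313 to 548) CPM in non-Tg and 663 (545 to 735) CPM in PS2APP libraries, and the 10 oligodendrocyte lineage markers to 824 (657 to 1051) CPM in non-Tg and 1323 (1142 to 1834) CPM in PS2APP libraries (exact two-sided permutation p = 0.0159, adjusted p = 0.0952 for neuron markers and p = 0.00794, adjusted p = 0.0571 for oligodendrocyte markers, of which neither passed 0.05 after adjustment). The myeloid reference genes themselves summed to 8567 (7969.7 to 8983) CPM in non-Tg and 7413 (6003 to 8567) CPM in PS2APP libraries. Mitochondrially encoded genes took 8.75% of counts in non-Tg and 13.5% in PS2APP libraries. The 7 border macrophage markers summed to 98.1 (42.2 to 199.9) CPM in non-Tg and 71.1 (43.5 to 89.8) CPM in PS2APP libraries, the 5 monocyte markers to 59.2 (44.4 to 80.2) CPM in non-Tg and 44.2 (11.2 to 120.5) CPM in PS2APP libraries and the 6 neutrophil markers to 594 (77.4 to 1184) CPM in non-Tg and 349 (24.7 to 796) CPM in PS2APP libraries. None of the markers of these lists was at 0 in all libraries of either myeloid group. The summed astrocyte markers stood at 756 and 798 CPM in non-Tg and PS2APP myeloid libraries. Lymphocyte markers stood at 3.29 and 2.05 CPM, with Cd3g, Cd79a and Nkg7 among those at 0 in all PS2APP myeloid libraries. The part of these shifts in the lower member values was not tested, other than by scaling to the reference genes, under which Adgrg1 stood at -0.39, Tmem119 at -0.51 and P2ry13 at -0.43 (edgeR adjusted p = 0.200, 0.104 and 0.175).

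**Figure D2:**
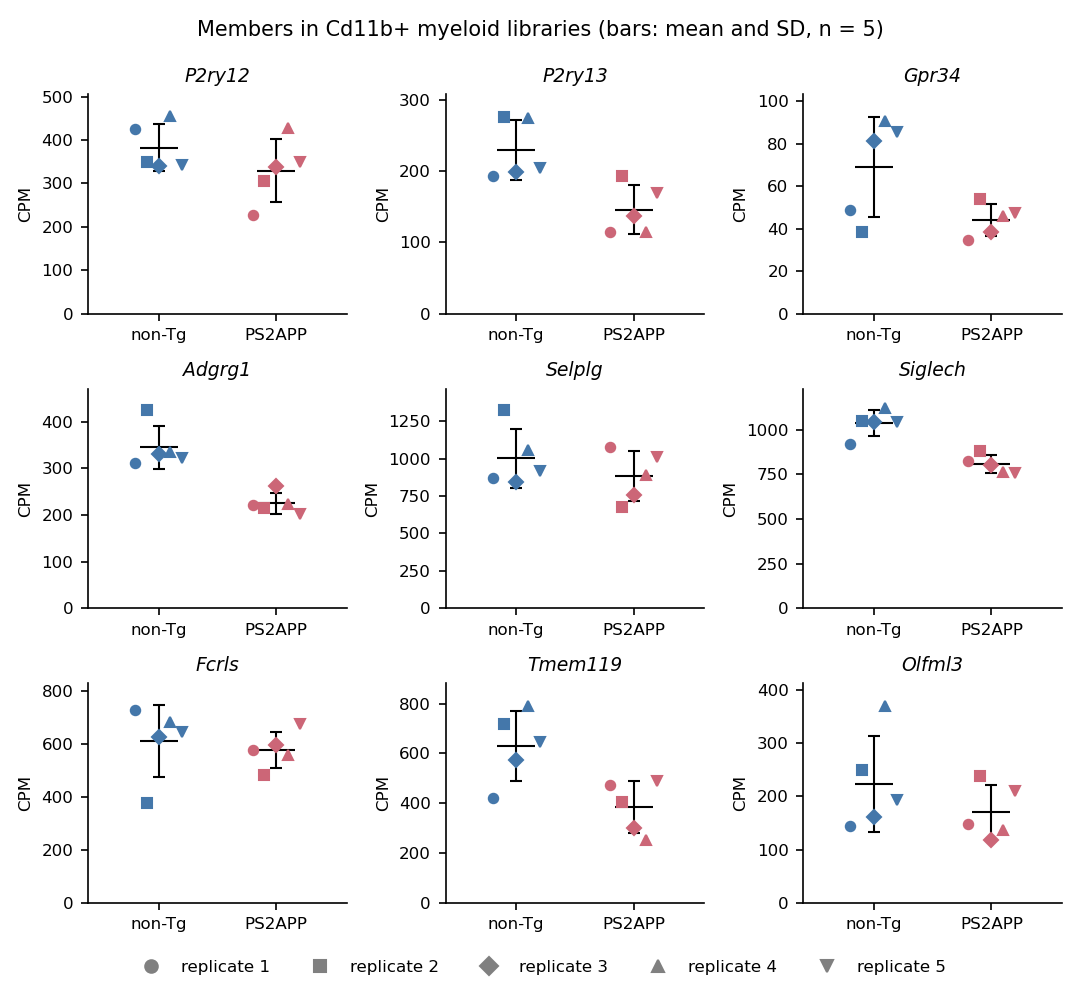
CPM of the 9 members in the 10 Cd11b+ myeloid libraries, non-Tg in blue and PS2APP in red, with 1 symbol per replicate number and the mean and SD of each group (n = 5) as bars; the vertical axes start at 0. The PS2APP points lie below all non-Tg points for P2ry13, Adgrg1 and Siglech, and overlap them for the other 6 members.

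In astrocyte libraries, PS2APP against non-Tg, 1 of the 7 members tested rose, Fcrls, and none fell; 0.185% of the 14043 genes tested were called, all of them higher. Gpr34 and Olfml3 were under the filter on low counts. Fcrls was measured at 4, 5, 7, 13 and 2 reads in the 5 non-Tg and 26, 36, 52, 25 and 12 reads in the 5 PS2APP astrocyte libraries. In CPM these were 0.695, 0.860, 1.87, 1.69 and 0.419 in non-Tg and 8.14, 12, 15.8, 4.46 and 4.13 in PS2APP libraries. All PS2APP libraries lay above all non-Tg libraries in CPM, as did 1.26% of genes tested (1.73% lay below), with PS2APP replicate 3 the highest. The log2 fold change was 2.98 ± 0.56 (edgeR adjusted p = 0.0313). With at most 1.87 CPM in non-Tg libraries, Fcrls passed the filter on low counts only through the PS2APP group, where it was high. Its call and its lack of overlap are therefore given as a description. The call was kept in 4 of 10 fits that left out 1 library and lost without non-Tg replicate 2, 3, 4 or 5 or PS2APP replicate 2 or 3 (edgeR adjusted p up to 0.113), while the log2 fold change ranged from 2.67 to 3.20. DESeq2 gave Fcrls an adjusted p of 4.3e-05.

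The other members in astrocyte libraries rested on few reads, apart from Adgrg1. Selplg was measured at 0.695, 4.64, 0.801, 0.260 and 1.68 CPM in non-Tg and 5.01, 9.36, 8.51, 6.25 and 3.10 CPM in PS2APP libraries, where non-Tg replicate 2 lay among the PS2APP libraries. Its log2 fold change was 1.98 ± 0.64 (edgeR adjusted p = 0.159), and Selplg too passed the filter mainly through its PS2APP libraries. Siglech was measured at 2.43, 8.60, 5.34, 4.94 and 5.24 CPM in non-Tg and 8.45, 7.36, 15.5, 16.2 and 7.23 CPM in PS2APP libraries, with PS2APP replicates 3 and 4 highest, and its log2 fold change was 1.05 ± 0.41 (edgeR adjusted p = 0.204). P2ry12 (0.74 ± 0.38), P2ry13 (-0.29 ± 0.41) and Tmem119 (0.019 ± 0.70) did not pass either. Adgrg1, with 209, 241, 259, 167 and 219 CPM in non-Tg and 202, 256, 223, 204 and 234 CPM in PS2APP astrocyte libraries, showed a log2 difference of 0.033 ± 0.16 (edgeR adjusted p = 0.936) with overlapping groups. In the fit of all 30 libraries, which shares 1 estimate of the spread, Siglech and Selplg were called higher as well (edgeR adjusted p = 0.0356 and 0.0120).

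The myeloid reference genes, all 10 of which were detected in both astrocyte groups, were also higher in PS2APP astrocyte libraries. They summed to 44.4 (28.7 to 55) CPM in non-Tg and 92.8 (58.9 to 115) CPM in PS2APP libraries without overlap (exact two-sided permutation p = 0.00794, adjusted p = 0.0571). Csf1r, the receptor of colony-stimulating factor, stood at 9.66 ± 2.15 and 27.3 ± 3.14 CPM. Beside them the summed neuron markers stood at 885 CPM in non-Tg and 1465 in PS2APP astrocyte libraries, oligodendrocyte lineage markers at 984 and 1511 CPM, and mitochondrially encoded genes at 3.58% and 6.91% of counts. The 7 border macrophage markers summed to 4.14 (1.89 to 6.37) CPM in non-Tg and 7.68 (2.5 to 20.7) CPM in PS2APP astrocyte libraries, with Pf4 and Ms4a7 at 0 in all PS2APP and no marker at 0 in all non-Tg libraries. The 5 monocyte markers summed to 19.1 (9.43 to 30.5) CPM in non-Tg and 21.2 (11.5 to 29.8) CPM in PS2APP astrocyte libraries, with Ly6c2 and Plac8 at 0 in all libraries of both groups. Per 1000 reads of the myeloid reference genes, Fcrls stood at 24.8 ± 10.9 in non-Tg and 94.8 ± 47.7 in PS2APP astrocyte libraries, against 71.9 ± 17.6 and 78.8 ± 10.1 in myeloid libraries. Siglech stood at 122 ± 57.6 and 121 ± 45.1 per 1000 in astrocyte libraries, near the 121 ± 3.94 of non-Tg myeloid libraries. Scaled to the reference genes, which moved the median of all genes to -1.07, Fcrls was still called higher (1.91, edgeR adjusted p = 0.0119), Selplg stood at 0.79 and Siglech at -0.017. P2ry12 turned to -0.34, and Adgrg1 (-1.03) and P2ry13 (-1.32) were called lower, both close to the shift of all genes. The part of the reference genes' shift in the Fcrls value was not tested beyond this scaling.

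In neuron libraries none of the 9 members was called, against 0.00623% of the 16064 genes tested, which is 1 gene. At an unadjusted p under 0.05 in edgeR there were 3671 genes, and Adgrg1 was the 1 member among them. DESeq2 called no member either. Adgrg1 was measured at 11.1, 10.4, 12.4, 12.5 and 9.95 CPM in non-Tg and 12.2, 14.6, 15.8, 14.2 and 14 CPM in PS2APP neuron libraries, and its log2 fold change was 0.33 ± 0.15 (edgeR adjusted p = 0.206). The other values were 0.70 ± 0.35 for Fcrls, 0.53 ± 0.30 for Siglech, 0.44 ± 0.32 for Selplg, 0.27 ± 0.33 for Tmem119, 0.072 ± 0.13 for P2ry13, -0.052 ± 0.24 for P2ry12, -0.10 ± 0.34 for Olfml3 and -0.39 ± 0.35 for Gpr34. The groups overlapped for each of the 9, whereas 1.87% of genes tested lay apart lower and 1.26% apart higher in PS2APP.

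**Figure D3:**
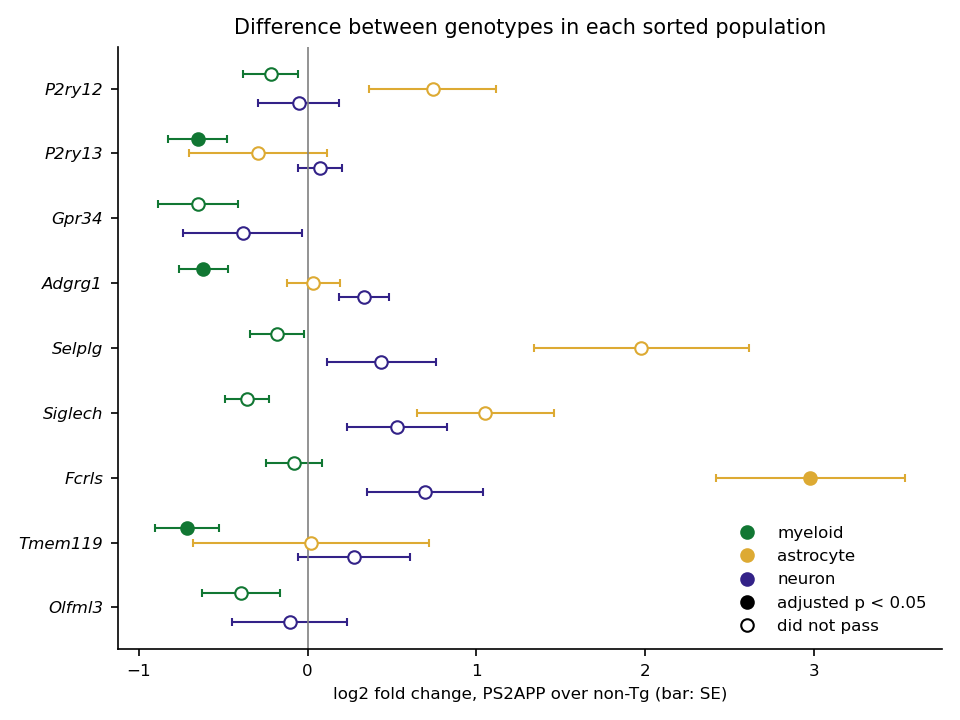
Log2 fold change of PS2APP over non-Tg for the members in myeloid (green), astrocyte (yellow) and neuron (violet) libraries, from edgeR fits of each population with TMM normalization; points are estimates, bars are SE, and filled points passed an adjusted p of 0.05. The 9 myeloid values lie below 0, though P2ry12, Selplg and Fcrls turn above 0 when scaled to the myeloid reference genes; Fcrls in astrocyte libraries lies farthest from 0 at 2.98. Gpr34 and Olfml3 have no astrocyte point because they were under the filter.

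The differences between these effects were tested in 1 fit of all 30 libraries. The PS2APP effect was lower in myeloid than in astrocyte libraries for 3 of 9 members: Fcrls (-3.09 ± 0.46), Selplg (-2.23 ± 0.52) and Siglech (-1.49 ± 0.35), with edgeR adjusted p = 0.000282, 0.0265 and 0.0265. Of 18101 genes 0.757% were called, 0.464% lower and 0.293% higher. Adgrg1 (-0.72 ± 0.20, edgeR adjusted p = 0.0816), P2ry12 (-1.04 ± 0.32, 0.127) and the remaining 4 members did not pass. The call of Fcrls was kept in all 30 fits that left out 1 library, and those of Siglech and Selplg in 25 each. In this fit the members passed the filter on low counts with their myeloid libraries, where their choice makes them high. Fcrls held 2 to 13, Selplg 2 to 27 and Siglech 14 to 50 reads in non-Tg astrocyte libraries. The calls are therefore given as a description. With DESeq2 size factors Siglech was no longer called (-1.36, edgeR adjusted p = 0.0561). Siglech was lost without non-Tg astrocyte replicate 1, 4 or 5 or PS2APP astrocyte replicate 3 or 4 (edgeR adjusted p up to 0.0793), and Selplg without non-Tg astrocyte replicate 1, 3 or 4 or PS2APP astrocyte replicate 2 or 3 (edgeR adjusted p up to 0.0682). The myeloid reference genes were also higher in PS2APP astrocyte libraries, as given above, and their part in these 3 differences was not tested.

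Between myeloid and neuron libraries the effect differed for 1 of 9 members, Adgrg1 (-1.05 ± 0.21, edgeR adjusted p = 0.0208), with 0.105% of genes called, 0.0110% lower and 0.0939% higher. This call was lost with DESeq2 size factors, with no filter on low counts, and without non-Tg myeloid replicate 2, non-Tg neuron replicate 2 or 5 or PS2APP neuron replicate 3 (edgeR adjusted p up to 0.0678). Between astrocyte and neuron libraries no member's effect differed in edgeR, against 0.0331% of genes called (900 genes at an unadjusted p under 0.05), and the nearest was Fcrls (2.23 ± 0.53, edgeR adjusted p = 0.236), while DESeq2 called Fcrls.

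The rule that chose the members names genes of microglia and no level in astrocytes or neurons. In non-Tg libraries Adgrg1 was higher in astrocyte than in neuron libraries by 4.75 ± 0.17 on the log2 scale (edgeR adjusted p = 8.4e-23). P2ry13 (-0.96 ± 0.23), Gpr34 (-1.27 ± 0.43) and Selplg (-1.46 ± 0.42) were lower in astrocyte libraries, with edgeR adjusted p = 0.000569, 0.0132 and 0.00364. These 4 of 9 stand against 51.7% of all genes called, 24.8% lower and 26.9% higher, and kept their calls in all 30 fits that left out 1 library. For Gpr34 and Selplg the groups overlapped in CPM, with 1 to 11 and 2 to 27 reads in non-Tg astrocyte libraries. Gpr34 was under the filter in the astrocyte fit. The myeloid reference genes also summed lower in non-Tg astrocyte (44.4 CPM) than in non-Tg neuron libraries (72 CPM). Their part in the lower values of P2ry13, Gpr34 and Selplg was not tested. P2ry12 (0.22 ± 0.25), Tmem119 (0.35 ± 0.43), Siglech (0.58 ± 0.28), Olfml3 (-0.24 ± 0.45) and Fcrls (-0.79 ± 0.42) did not pass.

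Each member was also set against the myeloid reference genes within a library. Per 1000 reads of the reference genes, P2ry12 stood at 44.7 ± 6.75 in non-Tg myeloid, 141 ± 18 in non-Tg astrocyte and 103 ± 22.2 in non-Tg neuron libraries (SD, n = 5). P2ry13 stood at 26.7 ± 4.03, 174 ± 48.4 and 294 ± 53.4, and Gpr34 at 8.03 ± 2.60, 23.6 ± 16.4 and 52.1 ± 16.4. These are the 3 members inside genes of the opposite strand, and in these libraries Med12l was present at 269.7 ± 38.4, 183 ± 27.5 and 335 ± 54.5 CPM and Cask at 67.7 ± 7.73, 43.1 ± 9.34 and 125 ± 4.78 CPM. The part of reads from the opposite strand in the low levels of the 3 was not tested. Adgrg1 stood at 40.3 ± 4.74, 5199 ± 1559 and 159.6 ± 26.4 per 1000. Fcrls stood at 71.9 ± 17.6, 24.8 ± 10.9 and 37.4 ± 12.2 and Selplg at 117 ± 20.3, 39.5 ± 46.7 and 84.8 ± 19.1. For Fcrls all non-Tg astrocyte libraries lay below all non-Tg myeloid libraries. Siglech stood at 121 ± 3.94, 122 ± 57.6 and 68 ± 12.6, with its neuron libraries below its myeloid range. Tmem119 stood at 73 ± 13.5, 63.1 ± 32.7 and 42.1 ± 13.9 and Olfml3 at 25.8 ± 9.46, 40.1 ± 25.4 and 37.4 ± 20.7, both with overlap between all 3 sorts.

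**Figure D4:**
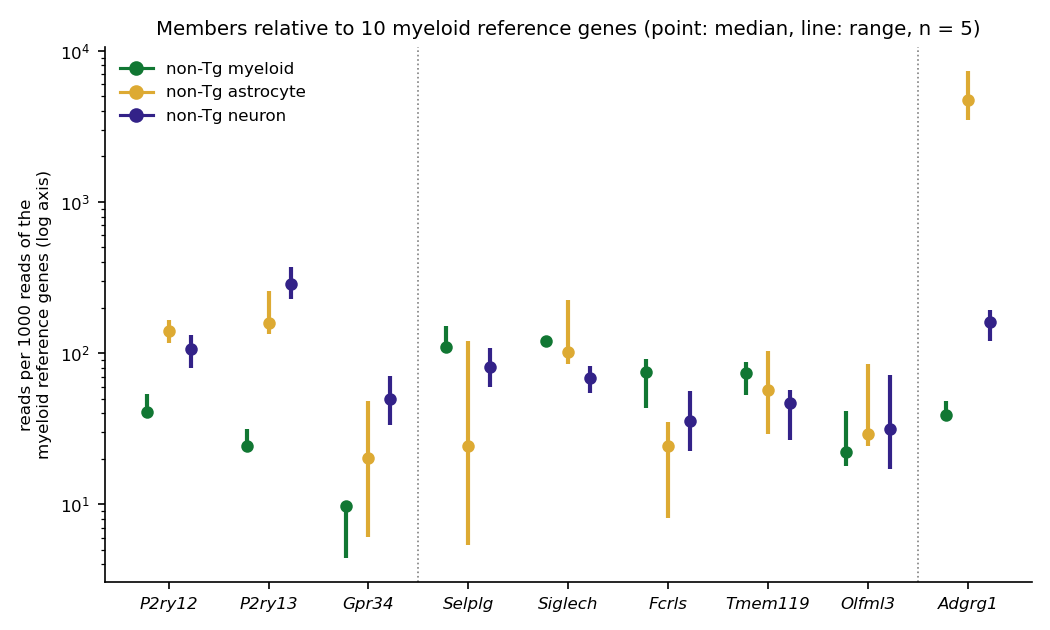
Reads of each member per 1000 reads of the 10 myeloid reference genes (log axis) in non-Tg myeloid, astrocyte and neuron libraries, as median and range of 5 libraries. P2ry12, P2ry13 and Adgrg1 lie higher in astrocyte and neuron libraries than in myeloid libraries without overlap, Gpr34 does so in neuron libraries only, and the ranges of the 5 members between the dotted lines overlap the myeloid range or lie below it.

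No gene beside or overlapping a member, members aside, was called in the myeloid comparison. Med12l showed a log2 difference of -0.23 ± 0.16 in PS2APP against non-Tg myeloid libraries (edgeR adjusted p = 0.445), near that of P2ry12 and above that of P2ry13. Cask had -0.20 ± 0.20 (edgeR adjusted p = 0.620), and Gpr82, which follows Gpr34 on its strand, -0.31 ± 0.55 at 5.66 ± 2.63 CPM in non-Tg myeloid libraries. Coro1c, an actin-binding coronin next to Selplg, had 0.076 ± 0.21, and Hipk1, a kinase gene next to Olfml3, -0.14 ± 0.16. Igsf10 next to P2ry12 had -1.14 ± 0.41 (edgeR adjusted p = 0.124). Adgrg5 and Adgrg3, adhesion receptor genes on either side of Adgrg1, were under the filter.

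Of 20 other genes of resting microglia, 5 fell in PS2APP myeloid libraries and none rose, with a median log2 fold change of -0.42 against -0.0021 over all genes. For this and the lists that follow, 3.36% of all genes tested were called, 1.50% lower and 1.86% higher. Among them were Tgfbr1, a receptor of TGF-beta, which went from 547 ± 134 to 276 ± 71.7 CPM (edgeR adjusted p = 0.00854) and the matricellular gene Sparc, from 678 ± 98.4 to 433 ± 83.4 CPM (0.0287). Cx3cr1 and Cd33 also fell. Of fits that left out 1 library, Tgfbr1 kept its call in 10 of 10, Sparc in 4 (without non-Tg replicate 1 or 2 or PS2APP replicate 2 or 5) and Cx3cr1 in 3. The count ranged from 1 to 7 when 1 library was left out: it was 1 without non-Tg replicate 4 or 5 or PS2APP replicate 4, 2 without non-Tg replicate 3 or PS2APP replicate 3, and 3 without PS2APP replicate 5. Of 12 other purinergic receptors and nucleotide enzymes, 6 passed the filter and 1 fell, the adenosine receptor Adora3, from 92.7 ± 16.6 to 44.1 ± 17.5 CPM (edgeR adjusted p = 0.0191); this was lost without non-Tg replicate 4 or PS2APP replicate 3. None of the 10 signalling partners of P2Y12, the protein of P2ry12, was called (median -0.079).

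Among 10 other Siglec genes and their adaptor chain, 1 rose and 1 fell. Tyrobp, the adaptor of Siglec-H, rose, with 187 ± 19.9 CPM in the non-Tg group and 290.2 ± 36.5 CPM in the PS2APP group (edgeR adjusted p = 0.0221); Siglech itself did not pass. Cd33, another Siglec gene that is also in the list of resting microglia genes, fell from 438 ± 77.8 to 249 ± 96.1 CPM (edgeR adjusted p = 0.0458), a call kept in 2 of 10 fits that left out 1 library, those without non-Tg replicate 1 or PS2APP replicate 1. The call of Tyrobp was kept in 8 of 10 and lost without non-Tg replicate 4 or PS2APP replicate 5. Of 12 other Fc receptor-like and adhesion receptor genes, 4 passed the filter and 1 fell, Adgre1, which codes for the macrophage marker F4/80, from 100.4 ± 19.4 to 58.9 ± 16.7 CPM (edgeR adjusted p = 0.0457, kept only without non-Tg replicate 1 or PS2APP replicate 2). Of 11 ligands, binding partners and lipid enzymes of the members, 6 passed the filter and none was called (median -0.055). In the fit of all 30 libraries Sparc, Adora3, Tyrobp, Cd33 and Adgre1 did not pass (edgeR adjusted p = 0.0798, 0.0623, 0.145, 0.0699 and 0.156). The shifts of neuron, oligodendrocyte and mitochondrial RNA given for the myeloid libraries stand beside these counts too.

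The gene nearest to each member over the 6 group means of log2(CPM + 0.5), each gene centred on its own mean, was sought among 18092 genes of the fit of all libraries. Siglech was nearest to Cx3cr1, the fractalkine receptor, with a root mean square difference of 0.0857 on the log2 scale. Fcrls was nearest to the organic anion transporter Slco2b1 (0.193). The astrocyte means of Slco2b1, 4.11 log2 CPM in PS2APP and 2.17 in non-Tg, were among those used to choose it. Selplg was nearest to the lysosomal membrane gene Laptm5 (0.195), itself in the reference list. P2ry12 was nearest to Rassf4 (0.113), P2ry13 to Ivns1abp (0.115), Gpr34 to the oxidase subunit gene Cybb (0.141), Olfml3 to the kinase gene Btk (0.120) and Tmem119 to Ecscr (0.235). Adgrg1 was nearest to Ugt1a6a (0.198), a glucuronosyltransferase gene whose reads can be shared with other transcripts of its locus. These are descriptions over 6 means that share libraries and carry no test.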

How the data were processed

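RNA of 30 libraries was analysed from the deposited tables, 1 per library. Per the file headers, the deposited counts are reads aligned uniquely per gene model, and the deposited values are size-factor-adjusted RPKM (nRPKM). In a check, each library's nRPKM equalled its counts times 1 factor over gene length. GSNAP and GRCm38 were used, per the submitters' processing notes; the sources used here give no versions, annotation or strand setting. Identifiers were matched to symbols in the RefSeq table of GRCm38.p6 (31049 of 36528, with 96.7% of counts). Groups came from the genotype and cell type labels; replicate numbers are names in accession order. All pairs of replicates differed beyond sampling noise (chi-square over degrees of freedom at least 3.71).

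Counts were tested in edgeR 4.0.16 (R 4.3.3; filterByExpr, TMM, quasi-likelihood test, Benjamini-Hochberg over all genes, threshold 0.05), each population alone, and in 1 fit of all libraries for differences between populations. Library totals, sums of markers and mitochondrial shares were compared by exact permutation (two-sided, scipy 1.17.1, 36 tests). CPM use the TMM factors of their population; a count of 3 was 0.444 to 1.49 CPM. Alternatives changed normalization, filter, tool (DESeq2 1.42.0), depth and libraries. Leaving out libraries for the counts over gene lists was added after seeing the data. The fits were tested on simulated data. The members and gene lists were chosen with earlier results of these data known. Named beside all 9 members were the 3 called genes of smallest p of each list, overlapping and neighbouring genes, the nearest gene in pattern, and Csf1r, chosen after its values were seen. A few list genes are not reported here.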

Additional observations from a re-analysis of the deposited data

Results flagged for a closer look

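Adgrg1 in non-Tg myeloid replicate 2 stood at 424 CPM, apart from the other 4 libraries of its group (313 to 335 CPM). It was the 1 group set apart by such a library among 54 groups of 5 examined, and chance gives about 1 in 20. Without it Adgrg1 no longer passed in the myeloid comparison (edgeR adjusted p = 0.0583).

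The PS2APP effect differed between myeloid and astrocyte libraries by the test of the difference itself for Siglech (-1.49), Fcrls (-3.09) and Selplg (-2.23) on the log2 scale. It differed between myeloid and neuron libraries for Adgrg1 (-1.05). The summed myeloid reference genes moved with genotype in the astrocyte libraries, and their part in these differences was not tested. The differences between myeloid and astrocyte libraries rested on few reads in non-Tg astrocyte libraries and are given as a description.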

How the results depend on the processing

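Outside the fits that left out 1 library, 498 single-gene values kept direction and call, 18 lost a call and 5 gained one. Scaled to the myeloid reference genes, the myeloid count was 0, and P2ry12 (0.029), Fcrls (0.13) and Selplg (0.040) changed sign. The astrocyte count was then 3, and P2ry12 (-0.34), Tmem119 (-1.21), Siglech (-0.017) and Adgrg1 (-1.03) changed sign there, as did P2ry13 in neuron libraries (-0.11); the median of all genes moved to -0.21 in neuron libraries. Upper-quartile factors changed the sign of Tmem119 (-0.051) and Adgrg1 (-0.047) in astrocyte libraries. The fit of all libraries gave 3 astrocyte calls. For the myeloid against neuron difference the count was 0 with DESeq2 size factors and 0 with no filter, and DESeq2 gave 1 for astrocyte against neuron. The cause was not tested.

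Leaving out 1 library, the members called ranged from 0 to 3 in myeloid, 0 to 1 in astrocyte and 0 to 0 in neuron libraries, 1 to 3 and 0 to 1 for the differences of myeloid from astrocyte and neuron, and 4 to 5 for astrocyte against neuron in non-Tg. The lists ranged from 1 to 7 (resting microglia), 0 to 1 (purinergic), 0 to 2 (Siglec) and 0 to 1 (Fc receptor-like and adhesion). Signs changed in astrocyte libraries for Tmem119 (-0.49 to 0.33; under the filter in 3 fits) and Adgrg1 (-0.061 to 0.086), in neuron libraries for P2ry12 (-0.15 to 0.083) and Olfml3 (-0.29 to 0.11), in the astrocyte against neuron difference for Tmem119 (-0.70 to 0.12) and Olfml3 (-0.086 to 0.77), and in non-Tg astrocyte against neuron for Tmem119 (-0.062 to 0.51).

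Over all genes the calls ranged from 105 to 939 (main 412) in myeloid, 8 to 8194 (main 26) in astrocyte and 1 to 153 (main 1) in neuron libraries. No paired analysis was possible because the labels carry no replicate numbers and do not link libraries to animals. Depth limits Gpr34, Olfml3, Tmem119, Fcrls and Selplg in astrocyte libraries, whose lowest libraries held 0 to 2 reads.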
